A study of Homo sapiens with 20 samples.

Results

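SJCRH30 is a human alveolar rhabdomyosarcoma line, a childhood tumour of cells committed to skeletal muscle, which came from a bone marrow metastasis. The comparison set 3 arrays of the parental SJCRH30 line, grown out of a prexasertib-sensitive xenograft, against 3 arrays of its resistant partner, grown out of a xenograft that had become resistant, and these are 6 of the 20 arrays of the series. The features compared were all transcript clusters, the probe sets that each stand for 1 gene on the array, that carried exactly 1 gene symbol, 17709 of 21448 clusters. The question was which transcripts differ once tumour cells have become resistant to prexasertib, a drug that inhibits CHK1, the kinase of the S phase checkpoint.

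Both lines were SJCRH30 cells that had grown as tumours in mice and were then returned to culture. By the methods of the study the parental line came from a tumour of a vehicle-treated animal, and the resistant line from a tumour that grew back after prexasertib, in athymic mice, which lack T cells and keep other host cells. The methods describe sub-culture of the tumour cells in the presence of prexasertib without naming an arm. The sample labels describe the resistant lines of the series in common as selected by rising drug concentrations, and no source used here says whether the drug was present when RNA was taken. Each line stands for 1 tumour, so resistance and the tumour of origin cannot be told apart. The labels call the 3 arrays of a line biological replicates, and as nothing names separate tumours for them, every p-value measures the spread between cultures of a line. The sources used here name no extraction or scan batch.

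CHK1 is activated by ATR when replication forks stall; it holds back origin firing and entry into mitosis, partly by removing the CDC25A phosphatase that activates CDK2 and CDK1. Inhibition of CHK1 in S phase fires origins, exhausts the single-strand binding protein RPA and breaks forks. Alveolar rhabdomyosarcoma cells are usually driven by the PAX3-FOXO1 fusion, express the myogenic factors MYOD1 and MYOG, and stop short of complete muscle differentiation.

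The values were log2 RMA values, a probe-level summary of array brightness. Arrays of 1 line correlated at 0.989 to 0.991 and arrays of different lines at 0.971 to 0.976, and the first principal component, with 61.6% of the variance, separated the lines. A cluster was called a rise or a fall in resistant cells at an adjusted p under 0.05 in limma's test and a change of more than 1.5-fold. By that rule 1669 clusters rose (9.42% of those tested) and 1644 fell (9.28%), together 18.7%, and in 3277 of the 3313 called clusters the resistant arrays all lay on 1 side of the parental arrays. The median size of a called change was 0.93 on the log2 scale. Changes of more than 4-fold were found in 84 clusters that rose and 90 that fell, and changes of more than 8-fold in 21 and 31. A mean log2 value under 5 in both lines, taken here as low signal, was found for 5991 clusters. Calls depended on signal. In the tenth of clusters with the lowest values 0.791% rose and 0.508% fell, and in the tenth with the highest values 17.9% and 16.8%. A share over all clusters is thus a low comparison for a list of high signal and a high one for a list of low signal. Of the calls, 963 rises and 919 falls held in every fit that left out 1 of the 6 arrays.

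The SJCRH30 values spread over a wider range (SD 2.99, highest value 19.4) than those of the Rh41 arrays of the series (SD 1.99, highest value 13.1), and the data do not tell which of the scales is closer to real log2 ratios. Put on the distribution of the Rh41 arrays, the 390 called changes of the genes named by rule were smaller by a median ratio of 1.86, and 262 of them were still called. TNFAIP2, an NF-kB target that rose by 2.01, had the largest change that lost its call there. Of the genes described below, ABCG2, APOBEC3B, APOBEC3C, ARMC10, ARMCX5, ASNS, CASP8, CCNA2, CCNB2, CCNE2, CHEK1, CHRNA1, CLDN7, COL4A1, COL5A2, DCTD, DNA2, EPCAM, FCER1G, GLI1, ID2, IRF9, KLHL41, LIMS1, MCL1, MCM7, MEF2C, MYL1, MYOG, NCAM1, PGK1, REV3L, RPS15, SCD, SDHC, SHLD2, SMAD4, SMOC1, SPRY4, USP1 and XPC were not called on that scale, where each kept its direction. All changes below are log2 differences, resistant minus parental, on the deposited scale, with the moderated standard error (SE) of the fit.

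The largest rise belonged to NID1, which encodes nidogen-1, the protein that links laminin to collagen IV in basement membranes. NID1 read 2.90, 2.72 and 2.98 on the parental arrays and 10.87, 11.31 and 10.98 on the resistant arrays, a rise of 8.19 (SE 0.20, adjusted p = 6.88e-11). The transcript thus stood at low signal in all parental cultures and well above it in all resistant ones. LAPTM5, whose product sits in lysosome membranes and is studied mostly in lymphocytes, read 7.40, 7.26 and 6.76 in parental and 14.35, 14.07 and 13.76 in resistant cultures and rose by 6.92 (SE 0.23, adjusted p = 1.41e-09). ERVW-1, the envelope gene of an endogenous retrovirus whose product, syncytin-1, fuses cells of the placenta, read 7.63, 6.63 and 6.93 and then 13.36, 13.24 and 12.59. Its groups were far apart, with a change of 5.997 (SE 0.28, adjusted p = 2.94e-08).

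Next in size were genes of several unlike functions. ARMCX2, an X-linked armadillo-repeat gene, rose from 8.07, 8.05 and 7.54 to 12.35, 12.54 and 12.81. FHL2, a LIM-domain cofactor first described as down-regulated in rhabdomyosarcoma against normal muscle cells, rose from 8.30, 7.88 and 7.38 to 12.46, 12.11 and 12.43. LGR5, a receptor that amplifies WNT signals when it binds R-spondin, rose from 5.36, 4.30 and 4.23 to 9.20, 9.20 and 8.75. The changes were 4.68 (SE 0.21, adjusted p = 2.9e-08) for ARMCX2, 4.49 (SE 0.24, adjusted p = 1.01e-07) for FHL2 and 4.42 (SE 0.28, adjusted p = 5.01e-07) for LGR5. DCLK1, a microtubule-associated kinase of migrating neurons, rose from 3.34, 2.74 and 3.20 to 7.04, 7.66 and 7.14. The remaining 8 of the 15 largest rises, between 3.57 and 4.07, were those of OLFML3, TNFSF15, S100A16, SGIP1, NDNF, STATH, DOCK10 and GJA1, the last of which encodes the gap junction protein connexin 43.

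The largest fall was that of SRL, sarcalumenin, which binds calcium inside the sarcoplasmic reticulum. SRL read 11.03, 11.06 and 10.59 on the parental arrays and 3.67, 3.17 and 2.93 on the resistant arrays and fell by 7.64 (SE 0.23, adjusted p = 7.11e-10). It was thus lost to low signal in all 3 resistant cultures. PCP4, a small calmodulin-binding peptide, read 12.98, 12.93 and 11.66 and then 5.05, 5.44 and 5.56, a fall of 7.17 (SE 0.31, adjusted p = 1.92e-08). MYL4, the embryonic and atrial myosin light chain, read 12.57, 12.05 and 12.04 and then 6.004, 5.27 and 4.93, a fall of 6.82 (SE 0.27, adjusted p = 7.91e-09). DCX, doublecortin, a microtubule protein of migrating neurons and a relative of DCLK1, read 14.57, 14.39 and 14.25 and then 8.38, 8.35 and 7.60. Its change of -6.29 (SE 0.23, adjusted p = 4.57e-09) ran opposite to that of DCLK1.

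NTN5, a netrin-like gene, fell from 10.10, 9.86 and 9.54 to 4.59, 4.76 and 4.05. The other large falls were those of EDIL3, an integrin ligand (-4.42), SELENOP, the plasma selenium carrier (-4.29), PLEKHG1 (-4.24), POF1B (-3.95), NELL1 (-3.90), SPECC1 (-3.82), CFLAR (-3.80), GP6 (-3.62), HHIP (-3.60) and F2RL2 (-3.51). All 30 of these leading rises and falls were called in each of the 6 fits that left out 1 array. Only called genes whose arrays did not overlap between the lines were ranked for these 30.

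**Figure D1:**
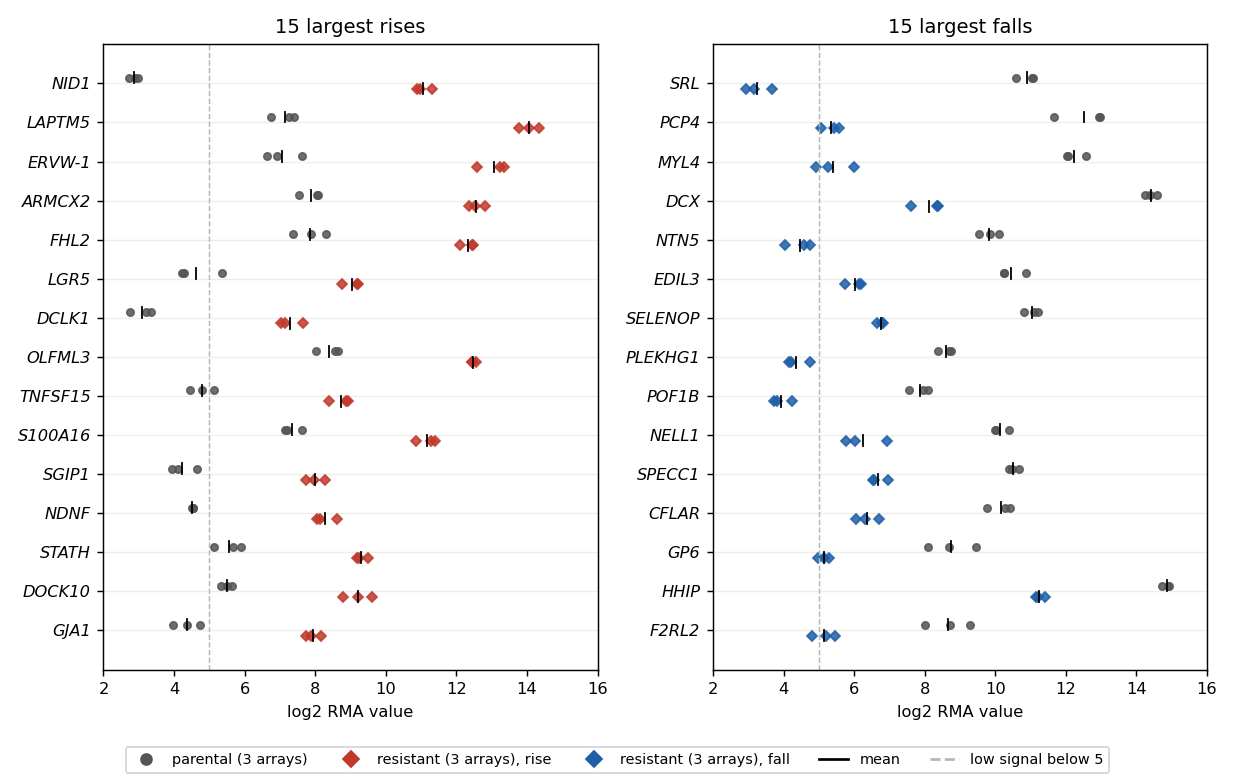
Log2 RMA values (horizontal axis) of the 15 genes with the largest rises (left) and the 15 with the largest falls (right) on each parental (circles) and resistant (diamonds) array, with group means as vertical bars and the level taken as low signal as a dashed line at 5. The genes run from NID1 (rise of 8.19) and SRL (fall of 7.64) at the top to GJA1 and F2RL2 at the bottom. They were picked among called genes whose 3 resistant arrays all lay beyond the 3 parental arrays, so the lack of overlap was a condition.

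Of the 9 defining markers of skeletal muscle and rhabdomyosarcoma, 8 lay above low signal in both lines, as the label of the line says, and 3 were called. DES, the muscle intermediate filament desmin, had means of 12.65 in parental and 12.46 in resistant cultures, MYOD1 of 9.80 and 9.52, FGFR4 of 12.97 and 13.29, and CDH15, the muscle M-cadherin, of 10.98 and 11.49, and none of these was called. MYOG, myogenin, the factor that starts terminal differentiation, read 15.39, 15.28 and 15.31 and then 14.46, 14.57 and 14.33, and fell by 0.87 (SE 0.18, adjusted p = 0.00459). MYMK, the fusion protein myomaker, stayed at low signal in both lines. PAX3 changed by -0.47 (adjusted p = 0.1) and FOXO1 by -0.43 (adjusted p = 0.177), neither called, and a cluster of either gene does not separate the fusion transcript from the normal one. The 32 measured genes of rhabdomyosarcoma identity held 2 rises and 4 falls, shares of 6.25% and 12.5% against 9.42% and 9.28% of all clusters, with a median change of -0.01 against 0.01. PODXL, a sialomucin, rose by 1.98 (adjusted p = 7.31e-05), and MEF2C, a partner of the myogenic factors, fell by 1.08 (adjusted p = 0.00176). The receptor subunit CHRNA1 (0.68) was called, but not once any array other than parental replicate 1 was left out (adjusted p = 0.0652 to 0.110), and NCAM1 (-0.74) lost its call without parental replicate 1 or 3 or resistant replicate 2 or 3 (adjusted p = 0.0557 to 0.126).

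Muscle structure changed unevenly. Of 50 sarcomere and contractile genes, 24 stood at low signal in both lines, 4 rose and 7 fell. After MYL4 the falls were led by TNNT1, slow skeletal troponin T, with 14.09, 14.42 and 14.46 on the parental and 12.70, 12.94 and 12.76 on the resistant arrays, by MYBPC2, a fast myosin-binding protein (-1.47), and by ACTC1, the cardiac actin of embryonic muscle (-1.25). KLHL41, which stabilizes nebulin, rose by 1.68 (adjusted p = 0.00254), MYH8, the perinatal myosin, by 1.26 (adjusted p = 0.00135), and MYL1, a fast light chain, by 0.80 (adjusted p = 0.00998). Fibre-type and stage isoforms thus moved in both directions within the list.

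Calcium handling and the muscle membrane had the highest share of rises of any list. Of 38 genes, 12 rose (31.6% against 9.42%) and 3 fell, and 9 of the rises held in all 6 fits that left out an array. PLN, phospholamban, which restrains the calcium pump of the sarcoplasmic reticulum, read 4.10, 4.45 and 4.57 and then 7.59, 7.50 and 6.59, from low signal in every parental culture, a rise of 2.85 (SE 0.26, adjusted p = 1.22e-05). PYGM, muscle glycogen phosphorylase, read 5.02, 5.31 and 5.07 and then 7.20, 7.44 and 7.27 (change 2.18, SE 0.19, adjusted p = 6.7e-06). BIN1, which bends the membrane into T-tubules, rose by 1.80 (adjusted p = 2.84e-05), and DMD, dystrophin, by 1.55 (adjusted p = 0.000167). Against these, CAV3, the caveolin of muscle, fell from 10.95, 11.07 and 10.62 to 8.55, 8.30 and 8.58 (change -2.40, SE 0.20, adjusted p = 4.78e-06), beside the loss of SRL.

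Regulators of embryonic and satellite muscle cells split evenly, with 6 of 34 rising and 6 falling. MSTN, myostatin, the secreted brake on muscle growth, read 12.90, 13.67 and 13.24 and then 10.21, 10.46 and 10.32 and fell by 2.94 (SE 0.22, adjusted p = 2.22e-06). The ID proteins, which sequester the partners of MYOD1 and are targets of BMP signalling, fell together, ID1 by 1.94 (adjusted p = 8.05e-05), ID3 by 1.51 (adjusted p = 0.000255) and ID2 by 1.30 (adjusted p = 0.00748). HES1, a NOTCH target that represses differentiation, rose from 8.16, 8.03 and 7.34 to 9.74, 9.77 and 9.72 (change 1.90, SE 0.23, adjusted p = 9.56e-05).

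Several large rises lay in the extracellular matrix. Of 42 genes of the interstitial matrix and its enzymes, 10 rose (23.8%) and 3 fell (7.14%), and of 30 basement membrane genes 7 rose (23.3%) and 3 fell (10%). FN1, fibronectin, read 12.15, 11.69 and 11.64 on the parental and 14.68, 14.61 and 14.81 on the resistant arrays, a rise of 2.88 (SE 0.20, adjusted p = 1.22e-06). MMP2, the gelatinase that cleaves basement membrane collagen, read 12.05, 12.23 and 12.34 and then 14.88, 14.83 and 15.07, a rise of 2.72 (SE 0.19, adjusted p = 1.07e-06). Both transcripts were far above low signal in both lines, with no overlap of the arrays. ADAMTS9, a protease that trims proteoglycans, rose by 1.79 (adjusted p = 0.000332) and THBS1, thrombospondin-1, by 1.75 (adjusted p = 0.000196). The falls were those of VCAN, the proteoglycan versican (-1.21), CCN1, a matricellular target of YAP (-1.21), and COL5A2 (-0.95).

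In the basement membrane, the laminin chains LAMC1 and LAMB1 rose with their binding partner nidogen-1. LAMC1 read 12.82, 12.74 and 12.80 and then 14.66, 14.41 and 14.71 (change 1.81, SE 0.18, adjusted p = 2.98e-05), and LAMB1 rose by 1.34 (adjusted p = 0.000841). COL18A1, the source of endostatin, rose by 1.54 (adjusted p = 0.00035), while COL4A1, a chain of collagen IV, fell by 0.90 (adjusted p = 0.0074) and SMOC1 by 1.13 (adjusted p = 0.00268). The median change of either matrix list, 0.12 for basement membrane and 0.04 for interstitial matrix, was far below the changes of these leading members.

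Among 35 integrin and focal adhesion genes, 7 rose and 5 fell. ITGB3, the beta-3 integrin chain that binds fibronectin and vitronectin, read 7.78, 8.54 and 8.47 and then 4.93, 5.34 and 4.48, a fall of 3.35 (SE 0.26, adjusted p = 3.22e-06) to about low signal. TNS3, a tensin (1.67), CAV1, caveolin-1 (1.55), VCL, vinculin (1.13) and LIMS1 (1.09) rose. Of 35 cadherins and protocadherins 4 rose and 6 fell, led by CDH19 (-2.76, adjusted p = 3.35e-05), PCDH7 (-1.83, adjusted p = 5.96e-05) and PCDHB5 (-1.60, adjusted p = 0.000207) downwards and PCDH11X (2.43, adjusted p = 1.46e-05) upwards. All 6 of these falls held in the 6 fits that left out an array. Protocadherin genes of 1 cluster are close copies of each other, so that their probes may share signal. OCLN, the tight junction protein occludin, fell from 11.34, 11.24 and 11.07 to 8.98, 8.73 and 9.003 (change -2.31, SE 0.19, adjusted p = 4.37e-06). The keratins KRT19 (-1.44), KRT14 (-1.29) and KRT18 (-1.26) and the epithelial adhesion protein EPCAM (-1.26) fell too. Of the other epithelial markers CLDN7, a claudin of tight junctions, rose by 0.78 (adjusted p = 0.0202), a call that was lost without any 1 of 4 of the arrays (highest adjusted p = 0.0857), and CDH1, the epithelial E-cadherin (-0.06), KRT5 (0.19) and ELF3 (-0.29) were not called. In the list of epithelial-mesenchymal regulators 5 of 28 rose and 5 fell, of which none of the rises and 4 of the falls held in all 6 fits that left out an array.

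**Figure D2:**
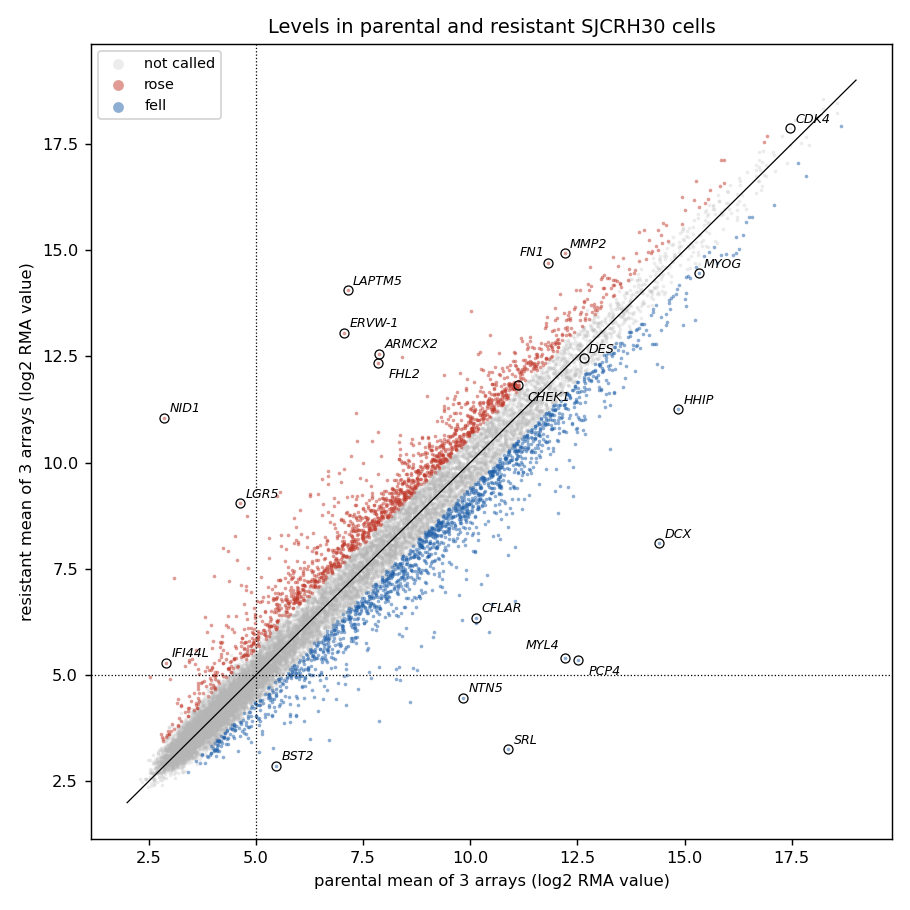
Mean log2 RMA value of 3 parental arrays (horizontal axis) against 3 resistant arrays (vertical axis) for the named clusters outside the Y chromosome, XIST left out, coloured by whether they rose, fell or were not called, with the diagonal of no change and dotted lines at the low-signal level of 5. NID1 lies low in parental and at 11.05 in resistant cells, SRL the reverse, while DES (12.65 and 12.46) and CDK4 (17.47 and 17.87) lie near the diagonal.

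Genes of neuronal migration and axon guidance had shares of calls above the background on both sides: 10 of 48 rose (20.8% against 9.42%) and 12 fell (25% against 9.28%). SLIT2, a secreted repellent, read 5.68, 5.31 and 5.77 and then 8.21, 7.79 and 8.10 (change 2.44, SE 0.21, adjusted p = 5.66e-06), and its receptor ROBO1 read 11.21, 10.97 and 11.19 and then 9.02, 9.20 and 9.23 (change -1.97, SE 0.18, adjusted p = 1.42e-05). Ligand and receptor thus changed in opposite directions, with no overlap in either. SEMA3D rose by 1.97 (adjusted p = 1.95e-05) and the netrin receptor UNC5B by 1.69 (adjusted p = 9.01e-05), while the semaphorin receptor PLXNA2 fell by 2.10 (adjusted p = 9.08e-06). MAP2, a microtubule protein of dendrites, fell from 10.79, 10.44 and 9.97 to 7.52, 7.08 and 7.45 (change -3.05, SE 0.23, adjusted p = 2.52e-06). Synaptic and neuroendocrine genes changed less, with 1 of 34 rising (UCHL1, 1.26) and 1 falling (PCP4), and 21 of them at low signal in both lines.

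In the WNT and R-spondin pathway 4 of 46 genes rose and 7 fell. The R-spondin receptors parted: LGR5 rose, while LGR4 read 10.68, 10.69 and 10.45 and then 8.60, 8.74 and 9.13 (change -1.78, SE 0.20, adjusted p = 6.85e-05). CTNNB1, beta-catenin itself, fell by 1.28 (adjusted p = 0.000327), GPC4, a glypican, by 2.12 (adjusted p = 2.43e-05) and the WNT antagonist SFRP1 by 1.35 (adjusted p = 0.00146), and the receptor FZD3 rose by 1.22 (adjusted p = 0.00122).

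Hedgehog signalling is read out by targets that also feed back on it, and 3 of these targets fell in resistant cells. HHIP, which binds hedgehog ligands, read 14.93, 14.72 and 14.91 and then 11.41, 11.15 and 11.20, a fall of 3.60 (SE 0.19, adjusted p = 7.34e-08). The receptor PTCH1 fell from 10.68, 10.50 and 10.83 to 8.84, 8.83 and 9.44 (change -1.63, SE 0.22, adjusted p = 0.000217) and the transcription factor GLI1 by 1.02 (adjusted p = 0.00167). All 3 stayed well above low signal in both lines. Over the NOTCH and hedgehog list as a whole, 3 of 34 genes rose and 4 fell, which is near the background shares.

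GLI1 belongs to the stretch of chromosome 12q13-q15 that is known to be amplified in SJCRH30, and that stretch did not move as a unit. CDK4, a driver of that amplicon, read 17.41, 17.53 and 17.45 in parental and 17.84, 17.84 and 17.92 in resistant cultures, a change of 0.40 (SE 0.18, adjusted p = 0.142) that did not reach 1.5-fold. Of 23 genes from the region, 6 rose and 3 fell. DDIT3, the stress factor CHOP, read 7.01, 6.95 and 6.83 and then 8.96, 9.03 and 9.20 (change 2.13, SE 0.18, adjusted p = 6.55e-06), EEF1AKMT3 rose by 1.60 (adjusted p = 6.59e-05), ARHGEF25 by 1.44 (adjusted p = 0.000352) and HMGA2 by 1.28 (adjusted p = 0.0019), whereas AGAP2 fell by 1.51 (adjusted p = 0.00224).

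In the TGF-beta, BMP and activin pathway 8 of 41 genes rose and 7 fell, of which 6 of the rises and 2 of the falls held in all 6 fits that left out an array. On the Rh41 scale the list had 5 rises and no fall. The ligand gene INHBE read 6.80, 6.62 and 7.02 and then 9.24, 9.16 and 9.09 (change 2.35, SE 0.19, adjusted p = 4.08e-06), and the receptors TGFBR1 (1.51, adjusted p = 0.000672) and ACVR1 (1.49, adjusted p = 0.000149) and the latency protein LTBP1 (1.56, adjusted p = 0.000102) rose as well. SMAD4, the mediator shared by all branches, fell by 1.03 (adjusted p = 0.0023). The median of the list was -0.24.

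Receptor tyrosine kinases and their ligands changed in both directions, 9 of 53 up and 10 down. FGFR2 read 10.59, 10.67 and 10.71 and then 8.44, 8.23 and 8.19, a fall of 2.37 (SE 0.18, adjusted p = 2.72e-06), while its relative FGFR4, a direct target of PAX3-FOXO1, was at 12.97 and 13.29 and was not called. MERTK rose by 1.66 (adjusted p = 0.0021), and the neuregulin NRG1 fell by 1.68 (adjusted p = 0.00023). Feedback genes of the MAPK pathway, whose levels follow ERK activity, rose more often than they fell: 8 of 36 rose (22.2%) and 4 fell (11.1%). DUSP6, an ERK phosphatase, read 8.75, 8.17 and 8.11 and then 10.23, 10.11 and 9.94 (change 1.75, SE 0.22, adjusted p = 0.000133), ETV5 rose by 1.24 (adjusted p = 0.00244), ETV1 by 1.08 (adjusted p = 0.0018) and SPRY4 by 1.03 (adjusted p = 0.0055). In that list 5 of the 8 rises and 1 of the 4 falls held in every fit that left out an array. The list that joins Hippo pathway genes and YAP targets ran the other way, with 2 of 33 rising and 7 falling (21.2%). Its falls were led by CRIM1 (-2.13, adjusted p = 1.3e-05) and VGLL4 (-1.87, adjusted p = 0.000107), and 3 of the 7 lay in stretches of chromosome with many falls.

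Interferon-stimulated genes are switched on by a shared promoter element, the interferon-stimulated response element, yet they moved in both directions here. The list of 54 held 8 rises (14.8%) and 5 falls (9.26%), and its median change was 0.03. IFI44 read 6.07, 5.83 and 5.93 and then 8.30, 8.61 and 8.54 (change 2.54, SE 0.19, adjusted p = 2.1e-06), and its neighbour IFI44L read 2.90, 2.98 and 2.84 and then 5.05, 5.76 and 5.08 (change 2.39, SE 0.22, adjusted p = 1.22e-05), from low signal in all parental cultures. IFI16, a nuclear DNA sensor, rose by 2.86 (adjusted p = 2.64e-06) and IRF9, the DNA-binding part of the interferon-activated complex, by 1.13 (adjusted p = 0.0052). BST2, tetherin, which holds budding virus to the cell, read 5.52, 5.97 and 4.93 and then 3.13, 2.83 and 2.65 (change -2.60, SE 0.26, adjusted p = 2.11e-05), HERC5, the ligase that attaches ISG15, read 10.80, 10.56 and 10.32 and then 8.78, 8.55 and 9.16 (change -1.73, SE 0.22, adjusted p = 0.000147), and PARP9 fell by 1.53 (adjusted p = 0.000464) and PARP14 by 1.08 (adjusted p = 0.00328). None of these genes had overlapping arrays.

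The 180 bases before the start site of the 2 genes that rose most among those with the element's core and of the 2 that fell most are shown to set the shared letters beside opposite changes. They were taken from RefSeq (GRCh38.p14) and are written 5′ to 3′ on the strand of the gene, with each match to GAAANNGAAA, on either strand, in capitals (on the other strand it reads as its reverse complement, and overlapping matches run together). Of 35116 windows of 300 bases around start sites, 3.57% held this core. Of the 44 interferon-stimulated genes with a window, 33 held it, among which 4 rose, 4 fell and 25 were not called. IFI44 has 2 windows in the table, and that with the core is shown. IFI44 lies at chr1:78649609-78649788 (plus strand), IFI44L at chr1:78620268-78620447 (plus strand), BST2 at chr19:17405631-17405810 (minus strand) and HERC5 at chr4:88456939-88457118 (plus strand).
IFI44: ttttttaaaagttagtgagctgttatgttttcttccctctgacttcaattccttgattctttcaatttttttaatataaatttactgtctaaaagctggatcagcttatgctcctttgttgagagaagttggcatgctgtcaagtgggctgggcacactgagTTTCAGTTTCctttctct
IFI44L: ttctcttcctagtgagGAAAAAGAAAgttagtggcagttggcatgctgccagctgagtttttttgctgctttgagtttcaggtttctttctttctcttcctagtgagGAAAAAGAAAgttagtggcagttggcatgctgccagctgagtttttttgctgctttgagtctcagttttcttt
BST2: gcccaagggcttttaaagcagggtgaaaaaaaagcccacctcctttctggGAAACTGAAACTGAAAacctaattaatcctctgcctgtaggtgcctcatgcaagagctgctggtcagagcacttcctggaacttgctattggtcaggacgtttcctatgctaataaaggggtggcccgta
HERC5: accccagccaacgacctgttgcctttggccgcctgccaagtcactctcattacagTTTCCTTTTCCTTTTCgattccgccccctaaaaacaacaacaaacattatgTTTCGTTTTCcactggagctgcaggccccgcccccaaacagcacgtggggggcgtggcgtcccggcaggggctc

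The core was thus found in promoters of genes that rose and of genes that fell, 1 match in IFI44, 2 in IFI44L and 2 overlapping in BST2, and 3 in HERC5, which is a statement on letters and not on binding. PARP9 and PARP14 lie in the same stretch of chromosome 3, where many genes fell, of which more is given with the chromosomes. Among 35 genes of nucleic acid sensing and restriction, 2 rose and 6 fell. SLFN11, which blocks stressed replication forks and sensitizes tumour cells to DNA-damaging drugs, read 6.56, 6.14 and 6.33 and then 5.04, 4.91 and 5.05 (change -1.34, SE 0.19, adjusted p = 0.000352). APOBEC3B fell by 1.12 (adjusted p = 0.00968), APOBEC3C, a close copy of it in part, by 1.16 (adjusted p = 0.00236), and RNASEH2A by 1.31 (adjusted p = 0.000411). STING1 (0.06, adjusted p = 0.9) and CD274, PD-L1 (-0.45, adjusted p = 0.501), were not called, and of 41 genes of MHC presentation and immune ligands 1 rose and 2 fell.

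CHK1 is the target of the drug, and its gene was slightly higher in resistant cells. CHEK1 read 11.16, 11.04 and 11.16 in parental and 11.82, 11.74 and 11.93 in resistant cultures, groups that did not overlap, a rise of 0.71 (SE 0.18, adjusted p = 0.0149). Without parental replicate 2 it was not called (adjusted p = 0.0581), nor without resistant replicate 3 (adjusted p = 0.0534), and its change was 0.38, under 1.5-fold, on the Rh41 scale. ATR (0.31, adjusted p = 0.538), WEE1 (0.43, 0.136), CHEK2 (0.14, 0.723) and CDC25A (0.12, 0.744) were not called.

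The ATR-CHK1-WEE1 and CDK2 list as a whole had 6 rises and 10 falls among 39 genes, 15.4% and 25.6%, against 9.42% and 9.28% of all clusters. In the tenth of clusters with means of 9.61 to 11.1, near the median levels of the list, 18.0% rose and 16.9% fell. Only 3 of the rises and 4 of the falls held in all 6 fits that left out an array. In stretches of chromosome with many calls of the same direction lay 3 of the rises and 4 of the falls. CKS1B, a subunit of CDK complexes that aids the removal of p27, rose by 1.22 (adjusted p = 0.0016) and USP1, a deubiquitinase of repair proteins, by 0.99 (adjusted p = 0.00325). RAD17, which loads the checkpoint clamp, read 10.60, 10.87 and 10.84 and then 9.76, 9.66 and 9.37 (change -1.18, SE 0.19, adjusted p = 0.00102), and BTRC, the ligase subunit that marks CDC25A and WEE1 for destruction, read 11.72, 11.60 and 11.50 and then 10.29, 10.13 and 10.11 (change -1.43, SE 0.18, adjusted p = 0.00017). CCNA2, cyclin A, fell by 1.08 (adjusted p = 0.0016) and CCNB2, a B-type cyclin, by 0.96 (adjusted p = 0.00608). Of the cyclin E pathway, CCNE1 (0.42, adjusted p = 0.131), CDK2 (0.09, adjusted p = 0.808) and FBXW7 (-0.17, adjusted p = 0.65) were not called. CCNE2 rose by 0.65 (adjusted p = 0.0423), a call that was lost without any single array other than resistant replicate 1 (adjusted p = 0.0560 to 0.133).

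Replication fork genes were more often higher than lower. Of 66 genes, none at low signal, 15 rose (22.7% against 9.42%) and 5 fell (7.58% against 9.28%), with a median change of 0.25. In the tenth of clusters with means of 9.61 to 11.1, where the median level of the list lay, 18.0% rose and 16.9% fell. Of the 15 rises, 12 held in all 6 fits that left out an array. RPA1, the large subunit of the RPA complex, read 10.67, 11.08 and 11.30 and then 12.44, 12.65 and 12.70 (change 1.58, SE 0.21, adjusted p = 0.000216), whereas RPA2 (0.41, adjusted p = 0.276) and RPA3 (-0.49, adjusted p = 0.183) were not called. Of the MCM helicase, MCM6 rose by 1.40 (adjusted p = 0.000327) and MCM7 by 0.81 (adjusted p = 0.0077), while MCM2 (0.21, adjusted p = 0.528) and MCM10 (-0.26, adjusted p = 0.642) were not called. RFC3, a subunit of the clamp loader, rose by 1.38 (adjusted p = 0.00029) and WDHD1, which ties the helicase to polymerase alpha, by 1.28 (adjusted p = 0.000376), but RFC1, the large clamp loader subunit, fell by 1.13 (adjusted p = 0.00262) and the nuclease DNA2 by 1.10 (adjusted p = 0.00222).

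Some of the fork genes that rose had many neighbours that rose with them. Among the 24 nearest tested genes, 11 rose and 0 fell around RPA1 and 9 and 0 around RFC3. Around MCM6 there were 4 and 0, around WDHD1 3 and 0 and around CHEK1 1 and 0. Windows of 25 successive tested genes held 2.35 rises on average. Among the falls, 10 of 24 neighbours of RFC1 fell. The part of copy number in these values was not tested.

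DNA repair genes were near the background, with 12 of 85 rising (14.1%) and 10 falling (11.8%). WRN, a helicase that repairs stalled forks, read 6.83, 7.35 and 6.93 and then 8.58, 8.72 and 8.62 (change 1.60, SE 0.20, adjusted p = 0.00014), with 13 of its 24 neighbours higher too. DCLRE1B, a nuclease of telomeres and crosslinks, rose by 1.31 (adjusted p = 0.000415). NHEJ1, an end-joining factor, fell by 1.20 (adjusted p = 0.00216), SHLD2, part of the shieldin complex, by 1.04 (adjusted p = 0.00266) and REV3L, the catalytic subunit of the bypass polymerase zeta, by 1.04 (adjusted p = 0.0018).

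Of 36 transcriptional regulators of G1 and S phase, 8 rose (22.2%) and 7 fell (19.4%). These shares lay near the 18.0% and 16.9% of the tenth of clusters with means of 9.61 to 11.1, where the median level of the list lay. E2F4, a repressor of cell cycle genes, read 10.10, 10.44 and 10.23 and then 12.34, 12.10 and 12.16 (change 1.94, SE 0.19, adjusted p = 1.98e-05), and UHRF1, which maintains DNA methylation at the fork, rose by 1.15 (adjusted p = 0.000908). MYBL2, E2F8, CHAF1B and TFDP1 fell by 1.44, 1.33, 1.38 and 1.26, and E2F1 (-0.24, adjusted p = 0.512) and CDKN1A, the CDK inhibitor p21 (0.19, adjusted p = 0.533), were not called. Among 67 genes of G2/M and mitosis 7 rose and 13 fell (19.4%), against falls in 9.28% of all clusters and 16.9% of the tenth with means of 9.61 to 11.1. Away from the stretches of chromosome with many falls described below, 6 of 55 fell (10.9%), against 6.95% of all genes there. KIF20A, a kinesin of cytokinesis, read 11.56, 11.46 and 11.39 and then 9.92, 9.87 and 9.93 (change -1.56, SE 0.18, adjusted p = 7.31e-05), CDCA3 fell by 1.58 (adjusted p = 0.00042), and PTTG1, securin, by 1.41 (adjusted p = 0.000322), while NUF2, a kinetochore protein, rose by 1.49 (adjusted p = 0.000664). The median of the mitotic list was -0.07.

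Apoptosis genes were near the background in number, with 5 of 41 rising and 4 falling, but held a large fall. CFLAR, whose product c-FLIP blocks caspase-8 at death receptors, read 10.27, 9.76 and 10.42 and then 6.70, 6.30 and 6.05 (change -3.80, SE 0.23, adjusted p = 3.78e-07), and all parental arrays lay above all resistant ones. CASP8, its neighbour on chromosome 2 and the caspase it blocks, read 7.99, 9.06 and 8.91 and then 9.99, 9.91 and 9.70 (change 1.22, SE 0.26, adjusted p = 0.00578), and the death receptor TNFRSF10B rose by 1.13 (adjusted p = 0.00277) and the survival protein MCL1 by 1.01 (adjusted p = 0.00176). Of 33 targets of p53, 7 rose, led by GADD45A (1.41, adjusted p = 0.000206), and 6 fell, led by PLK2 (-1.56, adjusted p = 0.000232).

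Oxidative phosphorylation had the highest share of falls of all lists. Of 68 measured subunits 30 fell (44.1% against 9.28%) and 3 rose, with a median change of -0.55, and 20 of the falls held in all 6 fits that left out an array. By complex, 16 of 32 genes of complex I fell, 4 of 8 of complex III, 4 of 11 of complex IV and 6 of 14 of complex V. Of the 3 genes of complex II, which alone also belongs to the citric acid cycle, none fell and 2 rose. NDUFB4, of complex I, read 11.73, 11.34 and 11.07 and then 9.30, 9.46 and 8.93 (change -2.15, SE 0.22, adjusted p = 3.54e-05), NDUFA2 read 9.42, 9.49 and 9.11 and then 7.25, 7.39 and 7.13 (change -2.08, SE 0.19, adjusted p = 1.28e-05), and SDHC, of complex II, read 10.76, 10.49 and 10.71 and then 11.58, 11.60 and 11.65 (change 0.95, SE 0.18, adjusted p = 0.00275). The arrays of the lines overlapped in none of these. Away from the stretches of chromosome with many falls described below, 24 of 60 subunits fell (40%), against 6.95% of all genes there.

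Ribosomal protein genes were lower as well: 15 of 43 fell (34.9%) and none rose, 7 of 19 of the small and 8 of 24 of the large subunit. RPS15 fell by 1.26 (adjusted p = 0.00531). RPS23 read 17.84, 18.03 and 17.63 and then 16.76, 16.82 and 16.68 (change -1.08, SE 0.19, adjusted p = 0.00155), RPL14 fell by 1.06 (adjusted p = 0.00323) and RPL18 by 1.07 (adjusted p = 0.0043). Of the 15 falls, 7 held in all 6 fits that left out an array, and on the Rh41 scale 4 ribosomal protein genes fell. Ribosomal protein genes have many processed copies in the genome, which probes may share. The tenth of all clusters with the highest values had a median change of 0.02, with 17.9% rising and 16.8% falling, against a median of -0.31 in the list.

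Glycolysis and hypoxia genes had 5 rises and 9 falls among 46, and all 9 falls held in every fit that left out an array. BNIP3, a hypoxia-induced mitophagy receptor, read 12.17, 12.02 and 11.77 and then 9.35, 9.13 and 9.55 (change -2.65, SE 0.20, adjusted p = 2.36e-06), and PGAM1, a glycolytic mutase, read 14.41, 14.48 and 14.22 and then 12.32, 12.30 and 12.35 (change -2.04, SE 0.18, adjusted p = 8.83e-06). P4HA2, a collagen prolyl hydroxylase, fell by 1.49 (adjusted p = 0.000144) and PGK1 by 1.05 (adjusted p = 0.00135), while EGLN3, an oxygen sensor, rose by 1.45 (adjusted p = 0.000723) and PFKP by 1.15 (adjusted p = 0.00198).

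Synthetic pathways rose in part. Of 36 genes of cholesterol and fatty acid synthesis 11 rose (30.6%) and 5 fell, with INSIG1, the sterol sensor partner, going from 7.36, 7.31 and 7.35 to 8.79, 8.68 and 8.66 (change 1.37, SE 0.18, adjusted p = 0.000195), HSD17B7 rising by 1.52 (adjusted p = 0.00078) and PMVK by 1.14 (adjusted p = 0.00136). The desaturases SCD5 (-1.33, adjusted p = 0.00222) and SCD (-1.03, adjusted p = 0.00612) fell. Of 40 genes of the amino acid and ATF4 response 10 rose (25%) and 4 fell, with a median of 0.33. Beside DDIT3 these were led by HERPUD1, a part of the quality control of the endoplasmic reticulum (1.85, adjusted p = 4.24e-05), PSAT1 of serine synthesis (1.09, adjusted p = 0.00113) and ASNS, asparagine synthetase (1.08, adjusted p = 0.00175), and GOT1 (-1.45, adjusted p = 0.000258) fell. Proteasome genes (9 of 34 up, 4 down) and MYC targets with ribosome biogenesis genes (10 of 38 up, 4 down) rose more often than they fell too. They were led by PSME1 (1.43, adjusted p = 0.000269) and LYAR (1.27, adjusted p = 0.00114). In all 6 fits that left out an array, 6 of the cholesterol, 8 of the ATF4, 6 of the proteasome and 6 of the MYC list rises held. On the Rh41 scale the cholesterol and ATF4 lists had 3 rises and 2 falls each. The proteasome list had 1 rise and 2 falls there and the MYC list 2 rises and no fall.

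Drug efflux and detoxification genes were near the background, with 6 of 55 rising and 8 falling. The transporter ABCB1 was not called, at 4.90, 5.56 and 5.42 and then 5.64, 5.48 and 5.19, which overlap. ABCG2, with means of 5.46 in parental and 4.50 in resistant cultures, fell by 0.96 (adjusted p = 0.0429), a call lost without any single array other than resistant replicate 1 (adjusted p = 0.0753 to 0.167). GSR, glutathione reductase, read 9.88, 10.02 and 9.88 and then 11.75, 12.27 and 11.85 (change 2.03, SE 0.20, adjusted p = 2.11e-05), and the NRF2 targets NQO1 and GCLM rose by 1.60 (adjusted p = 0.00015) and 1.37 (adjusted p = 0.00109). AKR1C3 fell by 1.93 (adjusted p = 3.61e-05) and AKR1C1 by 1.49 (adjusted p = 0.000522), and these reductases are near-identical copies whose probes may share signal.

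Smaller groups held single large changes. MAGEC1, a cancer-testis antigen of the X chromosome, read 6.29, 5.64 and 5.33 and then 8.37, 8.53 and 7.97 (change 2.54, SE 0.25, adjusted p = 2.47e-05), in a list of 38 germline genes of which 4 rose, none fell and 21 were at low signal in both lines. Of 25 ARMCX and BEX family genes 6 rose and 1 fell, with ARMCX5 (0.92) and ARMC10 (0.93) after ARMCX2. Of 17 retroviral envelope genes and their receptors 2 rose, and ERVW-1 alone of these held in every fit that left out an array. In the lysosome and autophagy list 8 of 50 rose and 7 fell, with the cathepsins CTSC (1.70, adjusted p = 0.000118) and CTSB (1.23, adjusted p = 0.00196) higher beside LAPTM5 and the autophagy enzyme ATG7 (-1.94, adjusted p = 0.000358) lower. Of 52 genes of TNF, NF-kB and JAK-STAT3 signalling 5 rose and 4 fell. CCL20, a chemokine of that list, read 5.03, 5.28 and 4.35 and then 6.88, 6.80 and 7.18 (change 2.07, SE 0.24, adjusted p = 8.89e-05), and TNFAIP3, which restrains NF-kB, fell by 1.13 (adjusted p = 0.00114). Of 34 genes of nucleotide supply 5 rose and 2 fell, with RRM1, the large subunit of ribonucleotide reductase, higher by 1.02 (adjusted p = 0.00189) and DCTD, which makes dUMP, lower by 1.06 (adjusted p = 0.00505).

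**Figure D3:**
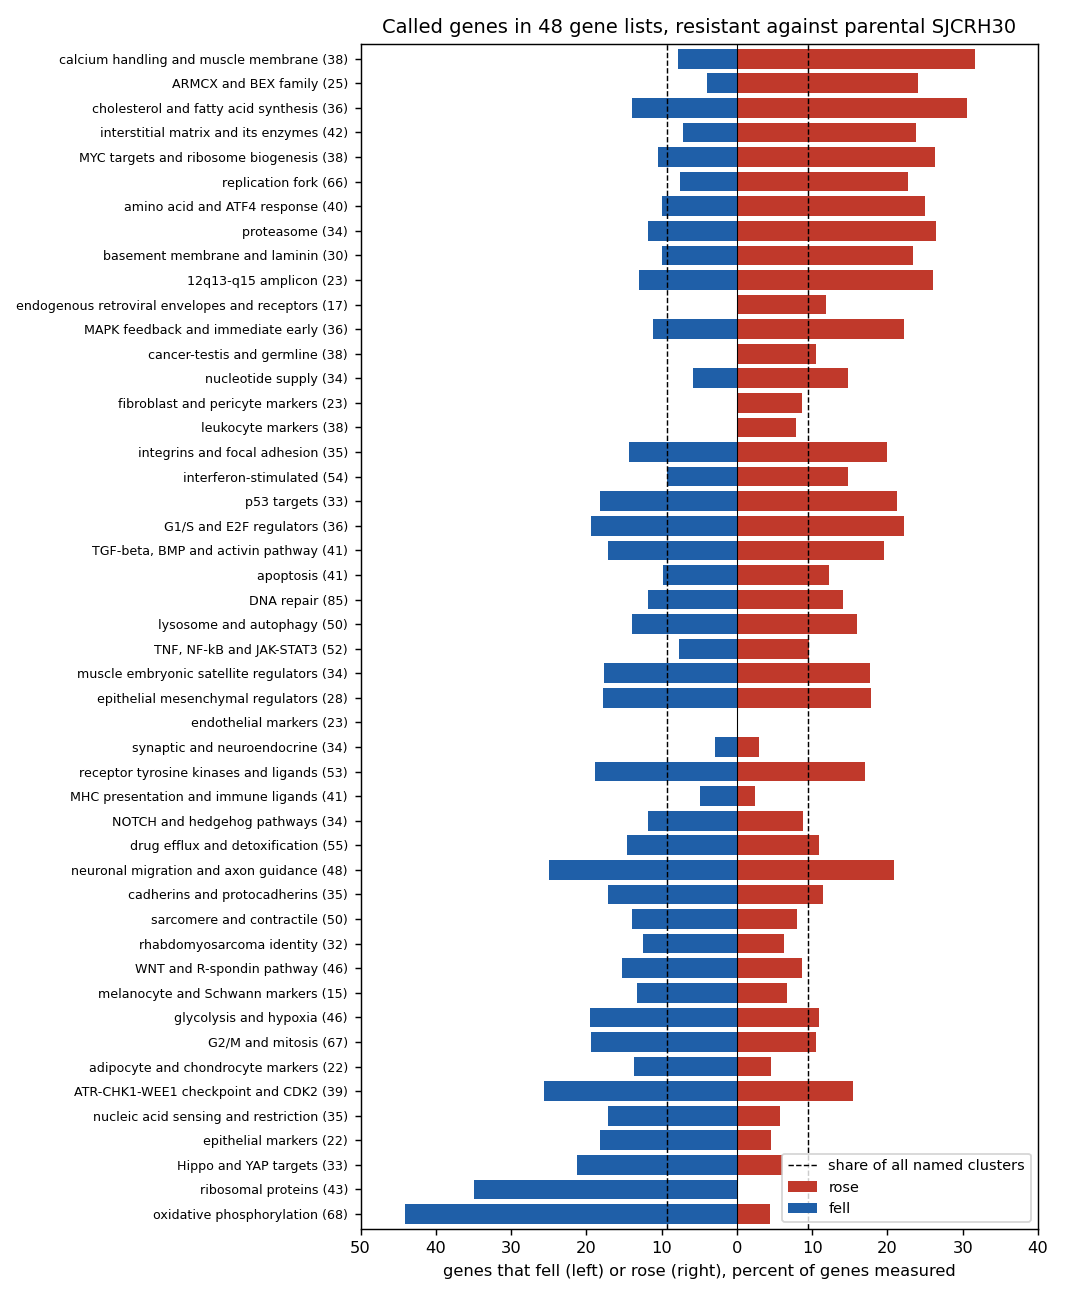
Share of the measured genes of each of 48 lists that rose (bars to the right) or fell (bars to the left) in resistant SJCRH30 cells, in percent, with the number of genes measured in brackets and the shares over all named clusters (9.42% and 9.28%) as dashed lines. Lists are ordered by the difference of the shares, from calcium handling and muscle membrane (12 of 38 up) to oxidative phosphorylation (30 of 68 down).

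The gene lists were set beside each other without a test. On the Rh41 scale, where calls over all clusters fell to 579 rises and 584 falls, the counts were 6 rises and 2 falls for calcium handling, 9 and 2 for the interstitial matrix, 6 and 1 for the replication fork, 2 and 2 for the checkpoint, 3 and no fall for MAPK feedback, and no rise and 13 falls for oxidative phosphorylation.

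Lists for cells that should not be in these cultures were counted too. No endothelial marker of 23 was called, 3 of 38 leukocyte markers rose and none fell, and 2 of 23 fibroblast and pericyte markers rose and none fell. Low signal in both lines was found for 15 of these endothelial, 22 leukocyte and 11 fibroblast and pericyte markers. Clusters of low signal were seldom called, so few calls in these lists do not show which cells were present. Of 22 epithelial markers 1 rose and 4 fell (18.2%), and of 15 melanocyte and Schwann cell markers 1 rose and 2 fell (13.3%), against falls in 9.28% of all clusters. Of 22 adipocyte and cartilage markers 1 rose and 3 fell (13.6%), among them SOX9 (-1.71, adjusted p = 6.77e-05) and COL2A1 (-1.66, adjusted p = 0.000381). LAPTM5 had the largest rise of these. The other leukocyte markers that rose were CD34, which progenitor and endothelial cells carry, with means of 4.99 and 6.22 (1.24, adjusted p = 0.0027), and FCER1G, at low signal in both lines (3.26 and 3.92, change 0.66, adjusted p = 0.0466), a call lost without any single array other than parental replicate 3. PTPRC, the leukocyte antigen CD45, was at low signal in both lines (4.36 and 4.52), as were CD14 (4.88 and 4.81) and MS4A1 (3.57 and 3.26), and TYROBP (7.81 and 7.40) and SPI1 (6.69 and 6.44), which lay above low signal, were not called. The mean level over the leukocyte list ranged from 4.74 to 4.83 on parental and from 5.01 to 5.11 on resistant arrays. That mean includes LAPTM5 with its rise of 6.92, while the median change of the list was 0.09. THY1, a surface protein of fibroblasts and other cells, read 5.55, 5.29 and 5.94 and then 7.78, 8.36 and 8.76 (change 2.71, SE 0.26, adjusted p = 1.67e-05), while DCN, LUM and FAP were at or about low signal in both lines, with changes of 0.02, 0.39 and 0.24, none called. The mean over the fibroblast list was 5.14 to 5.24 on parental and 5.30 to 5.34 on resistant arrays. It includes THY1 with its rise of 2.71, while the median change of the list was -0.04. In arrays of whole cultures fewer cells of a type and less RNA per cell cannot be told apart, and the part of host cells in these values was not tested.

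Many genes moved with their neighbours on the chromosome. On chromosome 5, 187 of 757 tested genes fell (24.7%) and 13 rose (1.72%), and on chromosome 19, 199 of 1256 fell (15.8%) and 19 rose (1.51%), against 9.28% and 9.42% of all clusters. On chromosome 21, 18.3% fell and 5.29% rose, and on chromosome 3, 15.9% and 6.94%. Chromosomes 8 (19.5% rose, 2.30% fell), 2 (18.5% and 5.29%), 13 (16.9% and 6.21%), 1 (16.1% and 4.75%), 7 (15.3% and 2.38%), 15 (14.4% and 4.62%) and 16 (13.2% and 2.42%) leaned the other way. The median change was -0.25 over chromosome 5 and 0.20 over chromosome 8, against 0.01 over all clusters.

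**Figure D4:**
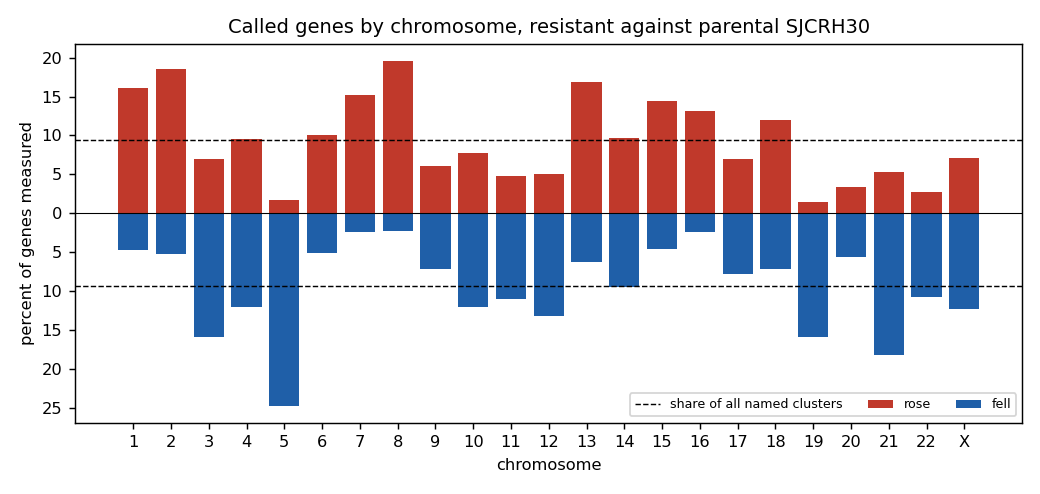
Share of the tested genes of each chromosome (horizontal axis) that rose (bars upwards) or fell (bars downwards) in resistant SJCRH30 cells, in percent, with the shares over all named clusters as dashed lines at 9.42% and 9.28%. Chromosomes 5, 19 and 21 show mostly falls (24.7%, 15.8% and 18.3%), and chromosomes 7, 8 and 16 mostly rises (15.3%, 19.5% and 13.2%).

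The order of genes was taken from RefSeq and windows of 25 successive tested genes were counted, which held 2.35 rises and 2.34 falls on average. The window with most rises ran from ZNF395 to RNF122 on chromosome 8 and held 18 rises and 2 falls, among them GSR and WRN, EXTL3 (1.25), SARAF (1.51) and LEPROTL1 (1.40). On chromosome 17 the window from LIAT1 to RPA1 held 15 rises and no fall, with RFLNB at 8.72, 8.38 and 7.89 in parental and 10.56, 10.45 and 10.44 in resistant cultures (change 2.15, SE 0.22, adjusted p = 3.35e-05), VPS53 (1.58), GEMIN4 (1.45) and PITPNA (1.33) beside RPA1. On chromosome 16 the window from CKLF to FHOD1 held 15 rises and no fall, with E2F4, CMTM4 (1.75) and CIAO2B (1.51), though CKLF, CMTM1 and their read-through transcript overlap and are not separate signals.

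Windows with 14 rises lay on chromosome 1 from DNTTIP2 to CDC14A, with DPYD, the enzyme that degrades pyrimidines, at 7.08, 6.30 and 6.69 and then 9.97, 9.43 and 9.64 (change 2.99, SE 0.23, adjusted p = 3.22e-06) and ARHGAP29 (2.05). Others lay on chromosome 1 from MCL1 to PI4KB, with MLLT11 (1.91) and CERS2 (1.09), and on chromosome 7 from PRKAR2B to GPR85, with IFRD1 (1.95), DOCK4 (1.61) and NRCAM (1.501). The window from SLC7A1 to CCDC169 on chromosome 13 held RFC3, N4BP2L2 (1.66) and DCLK1, and that from SULT1C2 to POLR1B on chromosome 2 held MERTK, TMEM87B (1.61) and SEPTIN10 (1.48).

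The window with most falls, from ZNF833P to ZNF791 on chromosome 19, held 21 falls and no rise, all of zinc finger genes. ZNF791 read 8.85, 8.61 and 9.37 and then 7.15, 7.42 and 7.03 (change -1.74, SE 0.22, adjusted p = 0.000183), ZNF439 fell by 1.49 (adjusted p = 0.000989) and ZNF443 by 1.48 (adjusted p = 0.000457). Zinc finger genes of such arrays are close copies, so that probes may share signal between them. Genes without that likeness fell together elsewhere: 17 of 25 from ARL14EP to NAT10 on chromosome 11, with MPPED2 (-2.13), KIAA1549L (-2.01), FBXO3 (-1.85) and EIF3M (-1.73), 16 of 25 from KLHL13 to C1GALT1C1 on the X chromosome and 15 of 25 from ETFRF1 to CAPRIN2 on chromosome 12. On the X chromosome UBE2A, a ubiquitin conjugase that modifies the sliding clamp at damaged forks, read 12.16, 11.92 and 11.95 and then 9.88, 9.77 and 9.90 (change -2.16, SE 0.18, adjusted p = 5.99e-06), with NDUFA1 (-1.86), SEPTIN6 (-1.90) and LAMP2 (-1.13) in the same window. On chromosome 3 there were 15 falls from CD86 to HEG1, with FAM162A (-2.07), PARP9 and PARP14, and 14 from WNT7A to OXNAD1, with LSM3 (-2.50), DPH3 (-1.85) and the repair gene XPC (-1.02).

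Windows with 10 or more rises covered 1178 genes, 6.67% of those placed, and windows with 10 or more falls covered 7.15%. Of the 10 largest rises and 10 largest falls, only DCLK1 and EDIL3 had 10 or more of their 24 neighbours changed in their own direction (10 and 10 of them), and 12 of the neighbours of F2RL2, on chromosome 5 like EDIL3, fell. NID1 had 4 neighbours that rose, LAPTM5 1 and ERVW-1 2, and around SRL, PCP4, MYL4 and DCX 0, 5, 4 and 6 fell. In NCI-H520, where 20% of clusters were called, the same chromosome 8 window held no rise and 1 fall and the chromosome 19 window 3 rises and no fall. In Rh41, where 8.78% were called, they held no rise and 5 falls, and 2 rises and no fall. Those lines had dense windows of their own elsewhere. Windows with 10 or more rises numbered 505 in SJCRH30, 383 in NCI-H520 and 10 in Rh41 and those with 10 or more falls 569, 358 and 51, and the densest in NCI-H520 held 20 rises.

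**Figure D5:**
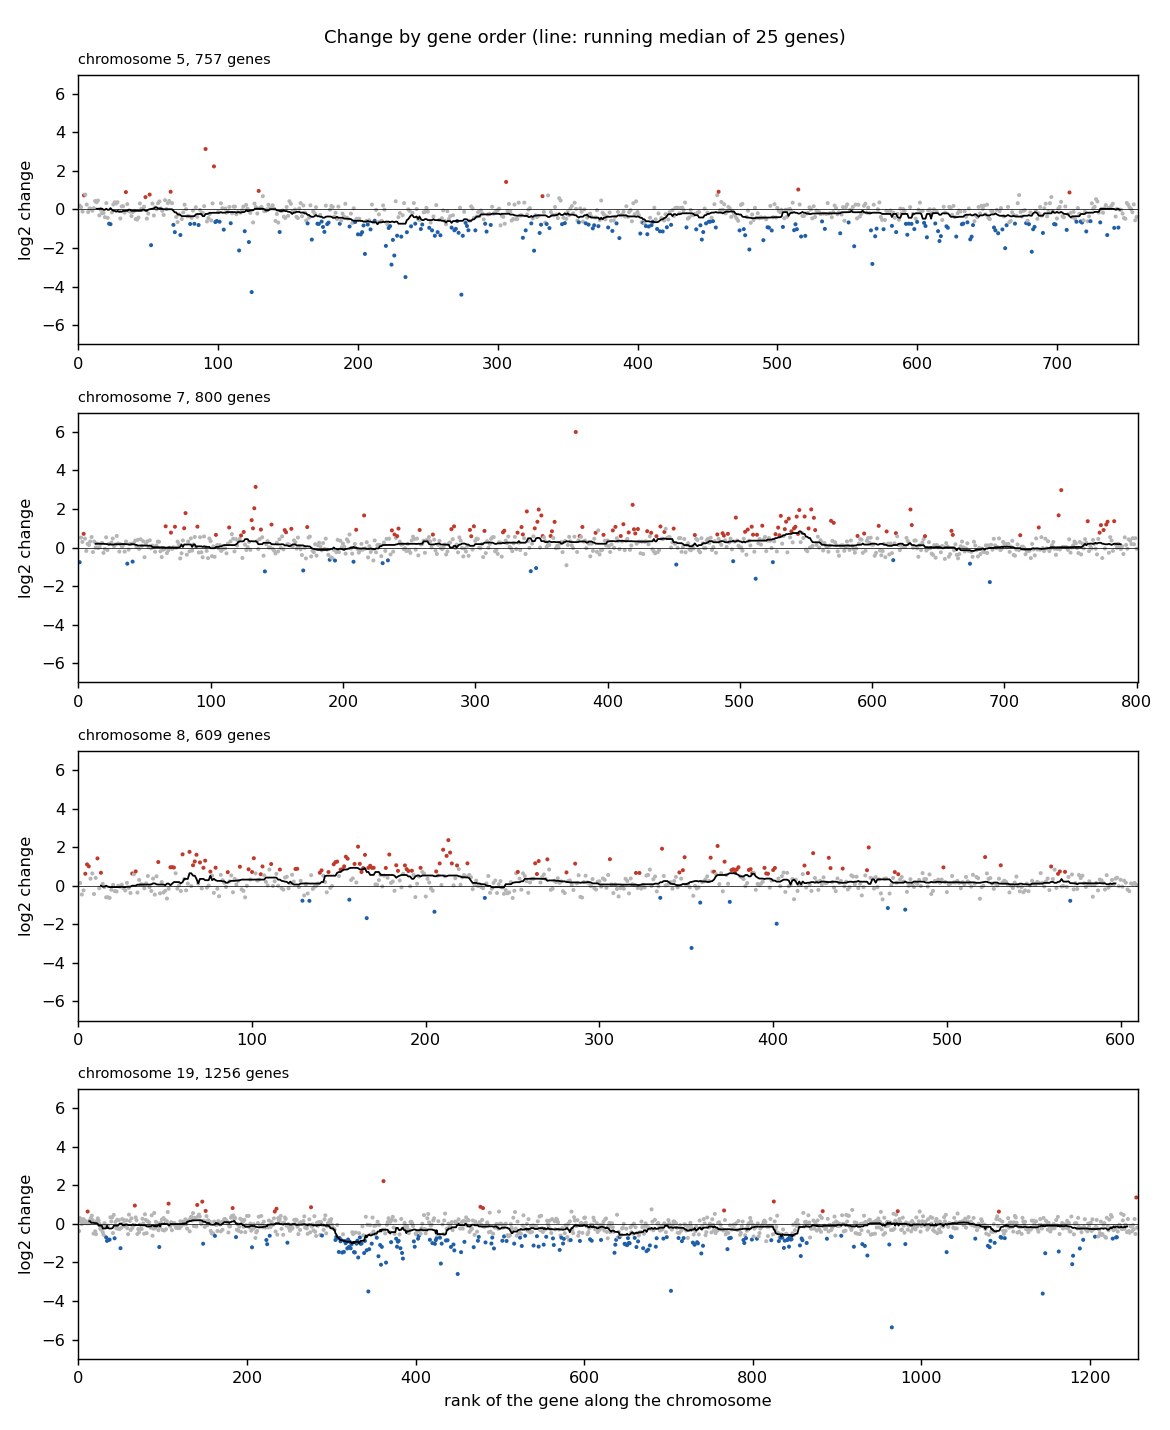
Log2 change, resistant minus parental SJCRH30 (vertical axis), of the tested genes of chromosomes 5, 7, 8 and 19 in their order along the chromosome (horizontal axis, rank), coloured red where they rose, blue where they fell and grey where not called, with a running median of 25 genes as a black line. The line stays at or below 0 along most of chromosome 5 and dips on chromosome 19 where 21 of 25 neighbouring genes fell, and it rises on chromosome 8 where 18 of 25 rose.

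Genes that crossed the range of the scale were few. From a mean under 5 in parental cells to 7 or more in resistant cells went 14 called clusters, and 12 went the other way. Beside NID1, LGR5, DCLK1, TNFSF15, SGIP1, NDNF, GJA1 and PLN, those that rose across that range included PTPRM, a receptor phosphatase that binds itself on neighbouring cells, with 3.04, 4.55 and 4.51 and then 7.17, 7.72 and 7.10, and CPVL, a carboxypeptidase, with 4.59, 4.46 and 4.61 and then 7.10, 7.96 and 8.04. In both genes every parental array lay under 5 and every resistant array above 7. Those that fell below 5, beside SRL, NTN5, PLEKHG1, POF1B and ITGB3, included NCCRP1 (-3.47), SYNPO, an actin-binding protein (-2.83), ALPK3, a muscle kinase (-2.76), CADM1, a cell adhesion protein (-2.72), and PLEKHS1 (-2.30).

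The other lines of the series showed where the changes of SJCRH30 differed. NCI-H520, a lung squamous carcinoma line, and Rh41, a further alveolar rhabdomyosarcoma line, had each been set against prexasertib-resistant derivatives on arrays of the same type, NCI-H520 with 6 arrays on the same scale as SJCRH30 and Rh41 with 3 parental and 5 resistant arrays on its narrower one. The change in SJCRH30 differed from that in NCI-H520, by limma's test of the difference itself, in 4085 clusters (23.1% of those tested), more positive in SJCRH30 in 1999 and more negative in 2086. Of the 8 largest rises and 8 largest falls of SJCRH30, all 16 differed, which was likely in advance for genes picked by the size of their SJCRH30 change. NID1 changed by 0.14 in NCI-H520, a difference of 8.04 (SE 0.37, adjusted p = 1.47e-10), and SRL by 0.25, a difference of -7.89 (SE 0.29, adjusted p = 1.74e-11). MYL4 fell in SJCRH30 but had a change of 1.54 in NCI-H520, a difference of -8.36 (SE 0.41, adjusted p = 2.88e-10).

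In Rh41, set beside SJCRH30 by direction alone, 3 of the 16 leading genes were called in the same direction, 7 in the opposite direction and 6 not. LAPTM5, OLFML3 and DCLK1 rose in both rhabdomyosarcoma lines, by 2.86, 1.89 and 0.73 in Rh41. NID1 (-2.32), LGR5 (-2.19) and ERVW-1 (-0.71) fell in Rh41, and SRL (2.74), MYL4 (1.51), SELENOP (1.07) and DCX (0.59) rose there. The difference between SJCRH30 and Rh41 itself was not tested, since their values stand on different scales.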

How the data were processed

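Total RNA of 3 parental and 3 resistant SJCRH30 cultures was labelled with biotin and hybridized to Clariom S arrays, 1 array per sample. The deposited table holds log2 values that the authors obtained by RMA with quantile normalization of the arrays of a set. Software version and probe annotation build are not given in the sources used here. Quantile normalization gives every array the same distribution, so a change of most transcripts in 1 direction cannot be seen. The sorted values were the same, within 0.00519, on all SJCRH30 and NCI-H520 arrays, and stood on another scale in Rh41, so Rh41 was fitted alone. Array values hold no read depth, and the number of arrays limits the precision. The median SE of a change was 0.21.

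Of 21448 transcript clusters, 17709 carried 1 gene symbol in GEO's platform annotation, all of which matched RefSeq by gene ID, and 3739 carried none. For the 20 symbols with more than 1 cluster, the lists used the cluster with the highest mean. Resistant was set against parental with lmFit and eBayes of limma 3.58.1 (R 4.3.3), two-sided, without a filter on low values or a block, with Benjamini-Hochberg adjustment over the 17709 clusters. A call needed an adjusted p under 0.05 and more than 1.5-fold. The fit was tested on simulated data with 200 changed genes. Summaries and plots used Python 3.11.15 and matplotlib 3.10.9.

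The members and the 48 gene lists (1985 genes, 1786 measured, 99 in more than 1 list) were chosen with earlier results of these data known, and lists are described by counts and medians, without tests. The genes named were first the 15 largest rises and falls among called genes whose resistant arrays all lay beyond the parental arrays. Also named were up to 4 called rises and falls of each list, a fixed panel and markers of cell types. Further genes were up to 10 each way that crossed from under 5 to 7 or more, and up to 5 called genes of the windows with most calls. Genes of the Y chromosome were left out of these. Alternatives were a filter on low values, all clusters, cyclic loess, median scaling, the Rh41 scale, other variance models and thresholds, array weights, a joint fit with NCI-H520, the replicate number as a block, the mean of a gene's clusters, and leaving out each array. For Rh41 scale, the values were mapped by rank to the mean sorted values of the Rh41 arrays. Gene order came from the RefSeq table (GRCh38.p14), promoters from the RefSeq promoter table of the same build.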

Additional observations from a re-analysis of the deposited data

Results flagged for a closer look

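The change in SJCRH30 differed from that in NCI-H520 for all 16 leading genes, by limma's test of the difference with Benjamini-Hochberg adjustment. The SJCRH30 change was more positive by 8.04 on the log2 scale in NID1, 7.01 in LAPTM5, 6.62 in ERVW-1, 4.51 in ARMCX2, 4.45 in FHL2, 4.48 in LGR5, 4.53 in DCLK1 and 3.35 in OLFML3. It was more negative in the others, with differences of -7.89 for SRL, -6.79 for PCP4, -8.36 for MYL4, -6.40 for DCX, -5.04 for NTN5, -4.79 for EDIL3, -3.45 for SELENOP and -6.57 for PLEKHG1. As these genes were picked for their size in SJCRH30, a difference from any other line was likely to be large in them.

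In 3 of these 16 genes, 1 of the 5 resistant Rh41 arrays lay apart from the rest, not necessarily the same array in each. The gap to the nearest array, as a share of the whole range, was 0.777 for ERVW-1, 0.796 for ARMCX2 and 0.711 for PLEKHG1. Chance alone gives such a gap in about 1 in 20 groups.

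Clusters without a gene symbol, which no comparison above uses, were called in a separate fit over all 21448 clusters. In it 223 of these 3739 were higher in resistant SJCRH30 cells and 223 lower. Each is a smaller share than the 9.42% and 9.28% of named clusters in the main fit.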

How the results depend on the processing

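The 1669 rises and 1644 falls moved to 579 and 584 on the Rh41 scale, to 689 and 718 at more than 2-fold, and to 314 and 317 with limma's treat against 1.5-fold, which tests for changes beyond that size. Leaving out 1 array gave 1240 to 1407 rises and 1169 to 1406 falls, with fewer arrays in each fit. Under the other alternatives the rises ranged from 1634 to 1814 and the falls from 1610 to 1773. The 4085 clusters whose change differed from that in NCI-H520 became 3658 to 3832 without 1 SJCRH30 array, and 5197 with all 20 arrays in 1 fit. No named change reversed under any alternative, and 334 of the 390 named calls held in all 6 fits that left out an array.

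With the replicate number as a block there were 1638 rises and 1610 falls, and 378 of the 390 named calls held. The deviations of arrays of the same number correlated at 0.117, -0.0147 and 0.0184, and 1 of 3 resistant arrays correlated best with the parental array of its number. On the second principal component, with 11.5% of the variance, parental and resistant replicate 1 lay at 21.5 and 21.9. The other arrays lay there between -25.6 and 2.08. With 3 arrays of each line, these values cannot tell whether arrays of a number were paired. With cyclic loess, median scaling or a filter at 5, the median change of all clusters stayed within 0.01 of 0, and the median of the proteasome list turned to -0.01 with cyclic loess. With the filter at 5 the medians of the cadherin and endothelial lists turned to -0.45 and -0.10, those of the adipocyte and chondrocyte and the melanocyte and Schwann lists to -0.38 and -0.25, and that of nucleic acid sensing to 0.02, over fewer genes. On the Rh41 scale the rhabdomyosarcoma identity list had 1 rise and no fall, and the interferon-stimulated list 3 rises and 4 falls. Clusters with both means under 5 give changes that rest on signals near background.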
